A study of Mus musculus with 8 samples.

Results

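The genes described here are 10 mouse chemokine genes, Ccl2, Ccl4, Ccl7, Ccl9, Ccl17, Cxcl1, Cxcl5, Cxcl12, Cxcl16 and Cx3cl1, out of 49315 genes counted by RNA-seq. They were chosen by symbol, with the measured SMV against Ctrl change in view, because several of them were lower with simvastatin, so their SMV against Ctrl values are given as a description, without a test. The study compared cultured cardiomyocytes exposed to simvastatin, a statin that inhibits HMG-CoA reductase of the mevalonate pathway, with cultures in control medium. The SMV group was 4 libraries from cells in medium with 10 µM simvastatin, and the Ctrl group was 4 libraries from cells in control medium. Both groups were heart cells of C57/Bl6 embryos at E12.5, pooled from males and females, with no genetic modification named, and the sources used here do not give the time in simvastatin. The labels do not say whether libraries came from separate cultures, so the spread between them may be partly technical. Headers of the count columns also name a set, which puts replicates 1 and 3 of each group in set 1 and replicates 2 and 4 in set 2; the sources used here do not say what a set stands for.

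Chemokines are small secreted or membrane-bound proteins that bind G protein-coupled receptors on leukocytes and other cells and direct their migration. They are classed by the spacing of the first cysteines of the mature protein: adjacent in CC chemokines, separated by a single residue in CXC chemokines and by 3 residues in the CX3C chemokine. Many inflammatory chemokines are transcribed after NF-kB activation by fibroblasts, endothelial cells and macrophages, whereas Cxcl12 is made continuously by stromal cells and takes part in coronary vessel growth in the embryonic heart.

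The stretch of coding sequence around those cysteines is shown for each member. The class was taken from the gene symbol and the protein searched for the spacing of that class. The spacing shown is therefore an illustration and no test of the class. Capitals mark the codons of the first cysteines and of any residues between them, each sequence is written 5′ to 3′ on the coding strand, and all are from GENCODE M21 transcripts on GRCm38.
Ccl2, chr11:82036494-82036523, plus strand: gccccactcaccTGCTGCtactcattcacc
Ccl7, chr11:82046526-82046555, plus strand: aatgcatccacaTGCTGCtatgtcaagaaa
Ccl4, chr11:83663470-83663499, plus strand: cctcccacttccTGCTGTttctcttacacc
Ccl9, chr11:83575914-83575943, minus strand: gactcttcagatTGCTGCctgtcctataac
Ccl17, chr8:94811200-94811229, plus strand: gtaggccgagagTGCTGCctggattacttc
Cxcl1, chr5:90891484-90891516, plus strand: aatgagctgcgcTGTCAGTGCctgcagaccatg
Cxcl5, chr5:90759715-90759747, plus strand: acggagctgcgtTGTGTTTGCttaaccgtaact
Cxcl12, chr6:117171496-117171528, plus strand: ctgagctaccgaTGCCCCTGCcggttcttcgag
Cxcl16, chr11:70459115-70459147, minus strand: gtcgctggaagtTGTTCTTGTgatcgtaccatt
Cx3cl1, chr8:94778039-94778077, plus strand: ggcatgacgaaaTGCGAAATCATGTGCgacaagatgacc
The codons are adjacent in the 5 CC genes, have 1 codon between them in the 4 CXC genes and 3 codons in Cx3cl1.

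Each library held 30474586 to 34993255 counted fragments or reads in SMV and 31457872 to 35215640 in Ctrl. Of the 49315 genes, 32927 had a count in any library and 16126 passed the abundance filter and were tested with edgeR's quasi-likelihood test. All 10 members passed that filter. Levels are given as CPM, counts scaled to the TMM-adjusted total of each library, and comparisons between genes as TPM, which also divides by exon length. The cells carried the cardiomyocyte label's markers. The 9 cardiomyocyte markers, all tested, summed to 66103 to 71225 CPM in SMV and 55142 to 68587 CPM in Ctrl. The set 1 Ctrl libraries were the lowest, at 59648 and 55142 CPM, against 67499 and 68587 CPM in the set 2 Ctrl libraries. Of the 9 markers 1, Myh7, rose (log2 fold change 1.15, edgeR adjusted p = 0.0026, threshold 0.05) and none fell. Over all genes tested, 7.79% rose and 9.61% fell. These are bulk libraries, in which fewer cells of a type and less RNA per cell cannot be told apart.

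With simvastatin, 8 of the 10 chemokine genes were called lower, none higher, and Cxcl1 and Cxcl16 were not called; over all 16126 genes tested, 9.61% were called lower and 7.79% higher at an adjusted p under 0.05. Because the genes were picked for this contrast, nothing is read from that difference. The SMV and Ctrl libraries did not overlap for 7 members, all lower in SMV, against 12.1% of all genes lower without overlap. The median log2 fold change of the members was -1.36, and that of all genes tested was 0.01. Summed over the 10 genes, the level was 221 to 327 CPM in SMV libraries and 508 to 995 CPM in Ctrl libraries. Within set 2 the members' median log2 fold change was -0.76, and within set 1 it was -1.998.

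**Figure D1:**
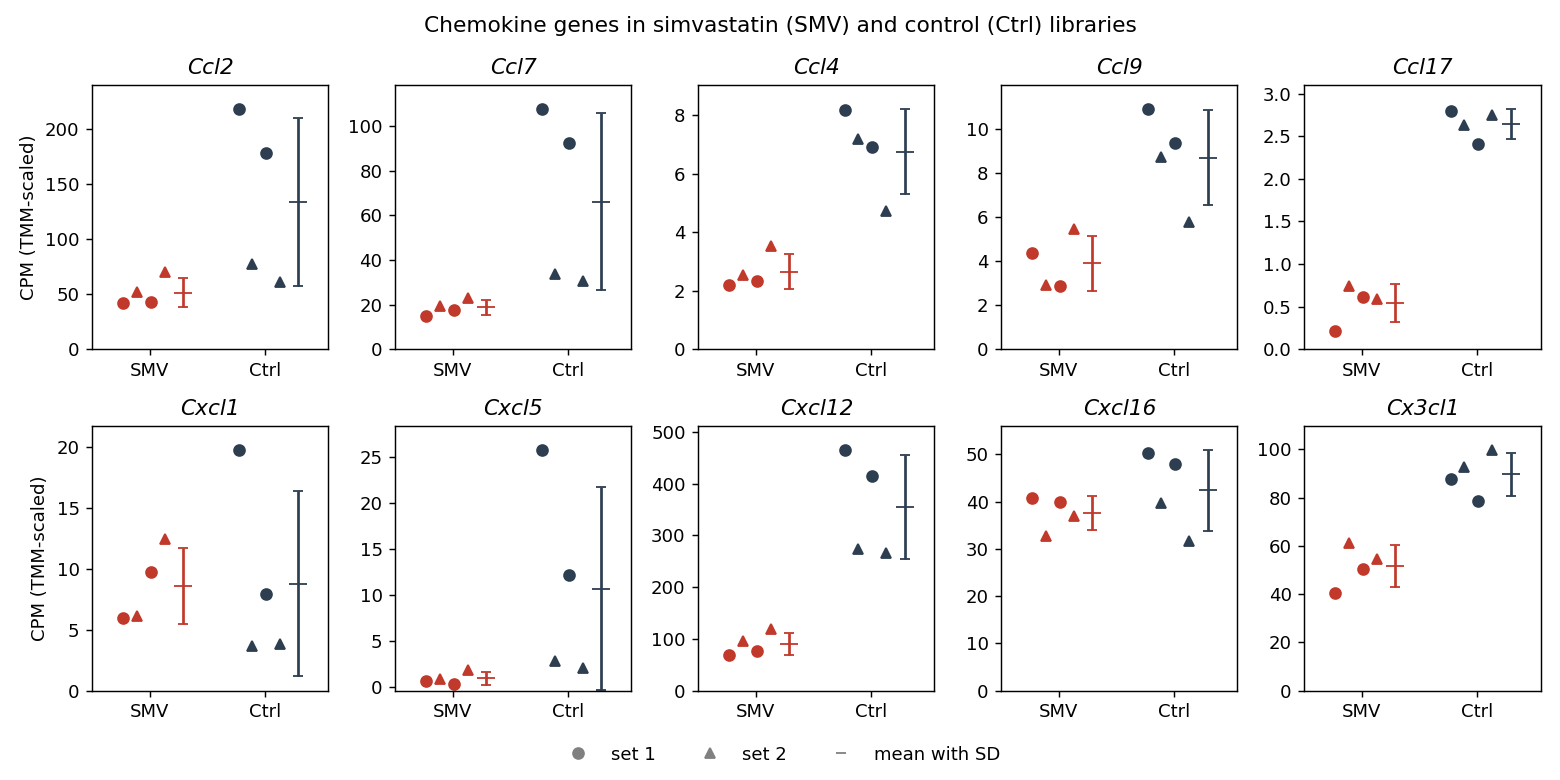
CPM of the 10 chemokine genes (vertical axes, 1 panel per gene) in the 4 SMV libraries (left, red) and 4 Ctrl libraries (right, blue), with circles for set 1, triangles for set 2 and bars for the mean with SD. For Ccl2, Ccl7, Cxcl1 and Cxcl5 the 2 Ctrl circles stand above the 2 Ctrl triangles, and for Cxcl12 no SMV point exceeds 119 CPM while every Ctrl point is at 266 CPM or more.

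The monocyte attractants Ccl2 and Ccl7 are ligands of the receptor Ccr2 and lie next to each other on chromosome 11, 8.3 kb apart. Ccl2 (ENSMUSG00000035385, chr11:82035571-82037453, plus strand) stood at 41.8, 51.8, 42.9 and 70.0 CPM in SMV replicates 1 to 4, against 218, 77.6, 178 and 61.3 CPM in Ctrl replicates 1 to 4. The groups overlapped, because SMV replicate 4 was above Ctrl replicate 4, and both set 1 Ctrl libraries were far above both set 2 Ctrl libraries. The means were 51.6 ± 13.1 CPM in SMV and 134 ± 76.4 CPM in Ctrl (SD, n = 4 each), a log2 fold change of -1.37 ± 0.37 (SE). Taken by set, the log2 fold change of Ccl2 was -0.19 ± 0.16 in set 2 and -2.24 ± 0.16 in set 1.

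Ccl7 (ENSMUSG00000035373, chr11:82045712-82047525, plus strand) had 14.8, 19.4, 17.8 and 23.2 CPM in SMV, against 108, 33.9, 92.4 and 30.5 CPM in Ctrl. Every SMV library was below every Ctrl library, with the set 1 Ctrl libraries again highest. Ccl7 averaged 18.8 ± 3.49 CPM in SMV and 66.1 ± 39.6 CPM in Ctrl (SD, n = 4 each), and its log2 fold change was -1.81 ± 0.39 over both sets, -0.60 ± 0.14 in set 2 and -2.63 ± 0.18 in set 1.

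Ccl4, Ccl9 and Ccl17, the remaining CC members, did not exceed 10.9 CPM in any library. Ccl4 (ENSMUSG00000018930, chr11:83662584-83664683, plus strand), made by macrophages and lymphocytes, was at 2.21, 2.53, 2.32 and 3.52 CPM in SMV, against 8.17, 7.19, 6.93 and 4.73 CPM in Ctrl. Ccl9 (ENSMUSG00000019122, chr11:83572919-83578636, minus strand), a rodent chemokine that binds Ccr1, was at 4.38, 2.94, 2.87 and 5.46 CPM in SMV, against 10.9, 8.73, 9.36 and 5.79 CPM in Ctrl. In both genes the groups did not overlap, and the nearest approach was between replicate 4 of SMV and replicate 4 of Ctrl. Ccl4 averaged 2.65 ± 0.600 CPM in SMV and 6.75 ± 1.45 CPM in Ctrl (SD, n = 4 each), a log2 fold change of -1.35 ± 0.23, and Ccl9 averaged 3.91 ± 1.25 CPM in SMV and 8.70 ± 2.14 CPM in Ctrl, a log2 fold change of -1.15 ± 0.26. Both were lower in either set, with log2 fold changes of -0.98 ± 0.28 in set 2 and -1.75 ± 0.27 in set 1 for Ccl4, and of -0.80 ± 0.32 in set 2 and -1.49 ± 0.30 in set 1 for Ccl9.

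Ccl17 (ENSMUSG00000031780, chr8:94810453-94812036, plus strand), which attracts T cells through Ccr4, was the member with the tightest Ctrl values. It stood at 0.221, 0.749, 0.613 and 0.593 CPM in SMV, against 2.79, 2.63, 2.40 and 2.75 CPM in Ctrl. All SMV libraries were under 1 CPM and all Ctrl libraries above 2 CPM, in both sets. The mean was 0.544 ± 0.226 CPM in SMV and 2.64 ± 0.174 CPM in Ctrl (SD, n = 4 each), the level in Ctrl being 4.83 times that in SMV, and the log2 fold change was -2.27 ± 0.32, with -1.99 ± 0.32 in set 2 and -2.65 ± 0.53 in set 1. Without SMV replicate 1, its lowest library, the log2 fold change was -2.01.

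The neutrophil attractants Cxcl1 and Cxcl5, both ligands of Cxcr2, lie in the same cluster on chromosome 5 and differed from each other. Cxcl5 (ENSMUSG00000029371, chr5:90759360-90761624, plus strand) was at 0.630, 0.950, 0.323 and 1.91 CPM in SMV, against 25.8, 2.84, 12.2 and 2.04 CPM in Ctrl. The groups did not overlap, but SMV replicate 4 and Ctrl replicate 4 were almost level, and most of the Ctrl signal came from the set 1 libraries. Cxcl5 had the largest log2 fold change of the 10 genes, -3.49 ± 0.82, from 0.953 ± 0.687 CPM in SMV and 10.7 ± 11.1 CPM in Ctrl (SD, n = 4 each). That value split into -0.78 ± 0.38 in set 2 and -5.31 ± 0.52 in set 1.

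Cxcl1 (ENSMUSG00000029380, chr5:90891241-90893115, plus strand) was at 5.95, 6.10, 9.77 and 12.4 CPM in SMV, against 19.7, 3.64, 7.96 and 3.82 CPM in Ctrl. The groups overlapped, with Ctrl replicate 1 the highest library and the set 2 Ctrl libraries the lowest. The means were close, 8.56 ± 3.12 CPM in SMV and 8.79 ± 7.57 CPM in Ctrl (SD, n = 4 each), with a log2 fold change of -0.04 ± 0.50. That sign is not fixed: with 1 library left out the value ran from -0.30 (without Ctrl replicate 2) to 0.72 (without Ctrl replicate 1). By set, Cxcl1 had a log2 fold change of 1.31 ± 0.32 in set 2 and -0.83 ± 0.45 in set 1, the only member whose fitted values in the sets had opposite signs.

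Cxcl12 (ENSMUSG00000061353, chr6:117168535-117181367, plus strand), the ligand of Cxcr4 and Ackr3, had no overlap between the groups. It stood at 69.6, 96.1, 76.9 and 119 CPM in SMV, against 464, 274, 414 and 266 CPM in Ctrl. The highest SMV library was below every Ctrl library, and in SMV the set 2 libraries were above those of set 1 while in Ctrl they were below them. The mean was 90.3 ± 22.0 CPM in SMV and 355 ± 99.7 CPM in Ctrl (SD, n = 4 each), a log2 fold change of -1.97 ± 0.22, with -1.33 ± 0.11 in set 2 and -2.60 ± 0.14 in set 1.

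The membrane-bound members are Cx3cl1, or fractalkine, the ligand of Cx3cr1, and Cxcl16, the ligand of Cxcr6. Cx3cl1 (ENSMUSG00000031778, chr8:94772009-94782427, plus strand), which lies 28.0 kb before Ccl17 on chromosome 8, had 40.4, 61.0, 50.2 and 54.4 CPM in SMV, against 87.5, 92.7, 78.6 and 99.6 CPM in Ctrl. The groups did not overlap, and the log2 fold change was -0.80 ± 0.13, from 51.5 ± 8.64 CPM in SMV and 89.6 ± 8.84 CPM in Ctrl (SD, n = 4 each). Its values by set were close, -0.74 ± 0.10 in set 2 and -0.89 ± 0.17 in set 1. Cxcl16 (ENSMUSG00000018920, chr11:70453983-70459984, minus strand) had 40.7, 32.7, 40.0 and 37.0 CPM in SMV, against 50.3, 39.6, 47.9 and 31.7 CPM in Ctrl, and these overlapped. Its mean was 37.6 ± 3.64 CPM in SMV and 42.4 ± 8.50 CPM in Ctrl (SD, n = 4 each), with a log2 fold change of -0.17 ± 0.15. Cxcl16 overlaps Zmynd15 on the opposite strand, which had 929 counts over the 8 libraries against 10555 for Cxcl16, and the sources used here do not say whether counting used strand.

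Per exon length, Ccl2 was the highest member in both groups, at 122 ± 30.3 TPM in SMV and 305 ± 175 TPM in Ctrl (SD, n = 4 each). In SMV it was followed by Ccl7 (63.0 TPM), Cx3cl1 (35.1 TPM), Cxcl16 (33.4 TPM), Cxcl12 (29.6 TPM), Cxcl1 (12.2 TPM), Ccl4 (10.7 TPM), Ccl9 (3.44 TPM), Ccl17 (2.84 TPM) and Cxcl5 (1.37 TPM). Of these neighbours, only Ccl2 and Ccl7, Ccl7 and Cx3cl1, Cxcl12 and Cxcl1, and Ccl4 and Ccl9 had ranges that did not overlap. In Ctrl the order was Ccl2, Ccl7 (214 TPM), Cxcl12 (113 TPM), Cx3cl1 (59.4 TPM), Cxcl16 (36.4 TPM), Ccl4 (26.6 TPM), Cxcl5 (15.01 TPM), Ccl17 (13.4 TPM), Cxcl1 (12.3 TPM) and Ccl9 (7.41 TPM). There only Cxcl12 and Cx3cl1, and Cx3cl1 and Cxcl16, were neighbours with separate ranges. Cxcl12 therefore stood above Cx3cl1 in every Ctrl library, while in SMV the ranges of Cxcl12 and its neighbour Cxcl16 overlapped.

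The set was a contrast that the choice of genes did not use. With treatment in the model, no member was called between set 2 and set 1, and over all genes 0% were called in either direction by edgeR's quasi-likelihood test. Without Ctrl replicate 1 that test called 853 of 16278 genes, and 0 members. At an unadjusted p under 0.05 there were 2 members, Cxcl16 (log2 difference -0.34 ± 0.11, edgeR adjusted p = 0.191) and Cx3cl1 (0.28 ± 0.10, edgeR adjusted p = 0.214), and 2835 genes in all; limma-voom called 0 members and DESeq2 0 members, and DESeq2 called 523 genes in all. An average over both treatments hides what the libraries show within each. In SMV, the mean of set 1 was 0.333 times that of set 2 for Cxcl5, 0.849 times for Cxcl1, 0.766 times for Ccl7, 0.695 times for Ccl2 and 0.682 times for Cxcl12. In Ctrl the same ratios were 7.79 for Cxcl5, 3.71 for Cxcl1, 3.10 for Ccl7, 2.86 for Ccl2 and 1.63 for Cxcl12. The mean of set 1 was thus lower in SMV and higher in Ctrl for all 5 genes. For Cxcl1 the SMV libraries interleaved, at 5.95 and 9.77 CPM in set 1 and 6.10 and 12.4 CPM in set 2. The ratio turned likewise for Ccl4 (0.748 in SMV and 1.27 in Ctrl) and Ccl9 (0.863 and 1.40). It did not turn for Ccl17 (0.621 and 0.965) or Cxcl16 (1.16 and 1.38). For Cx3cl1 the ratio of set 1 to set 2 was 0.785 in SMV and 0.864 in Ctrl.

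The difference between the treatment effects in the sets was tested as an interaction, set 2 minus set 1. It was positive for all 10 members, meaning a less negative or more positive effect in set 2, except that Cx3cl1 turned to -0.012 without SMV replicate 1. It was called for 2 of 10, against 0.0558% of all genes, or 9 of 16126. These were Ccl2 (2.04 ± 0.26 on the log2 scale, edgeR adjusted p = 0.0379) and Ccl7 (2.02 ± 0.23, edgeR adjusted p = 0.0351). Not called were Cxcl5 (4.52 ± 0.70, edgeR adjusted p = 0.0613), Cxcl12 (1.25 ± 0.19, edgeR adjusted p = 0.0601) and Cxcl1 (2.12 ± 0.65, edgeR adjusted p = 0.205), each with an unadjusted p under 0.05. Over all genes, 1850 of 16126 had an unadjusted interaction p under 0.05. The other 5 members had interactions of 0.14 (Cx3cl1) to 0.76 (Ccl4), with edgeR adjusted p of 0.552 or more. Each set holds 2 libraries a group, and single libraries decide the calls: without Ctrl replicate 2 or 4, or any 1 of the 4 SMV replicates, 0 members were called, without Ctrl replicate 1 there were 4 and without Ctrl replicate 3 there were 5. Over all genes the count moved as well, to 316 of 16278 without Ctrl replicate 1, 1213 of 16355 without Ctrl replicate 3 and 0 without any other library. Over those fits the interaction of Ccl2 stayed at 1.84 to 2.27 and that of Ccl7 at 1.89 to 2.17. A lone library in a set was assumed there to vary like the other groups. DESeq2 called 5 members and 530 genes in all.

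**Figure D2:**
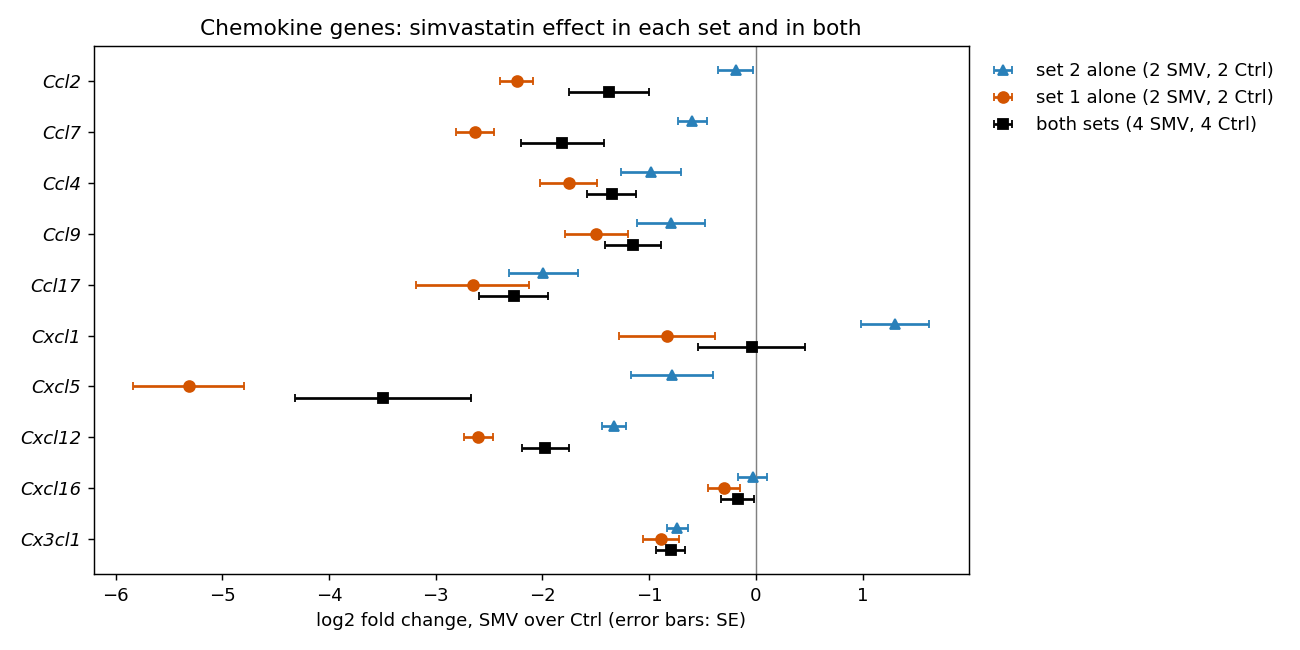
Log2 fold change of SMV over Ctrl (horizontal axis, bars are SE) for the 10 chemokine genes in set 2 alone (blue triangles), set 1 alone (orange circles) and both sets (black squares). Set 2 lies right of set 1 for every gene, by the widest margin for Cxcl5 at -0.78 in set 2 and -5.31 in set 1.

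Markers of other cell types were read beside these values. The 10 fibroblast and mesenchyme markers, all tested, summed to 1706, 2064, 1816 and 1881 CPM in SMV replicates 1 to 4, against 3632, 1869, 3471 and 1900 CPM in Ctrl, with none at 0. The set 1 Ctrl libraries, those highest in Ccl2, Ccl7 and Cxcl5, were thus also the highest in these markers. By edgeR's quasi-likelihood test 4 of the 10 fell with simvastatin and 0 rose, against 9.61% and 7.79% of all genes tested. The log2 fold change was negative for 7 of the 10. Without overlap between the groups, 3 were lower in SMV and 1 was higher, against 12.1% and 11% of all genes. The median log2 fold change of the 10 markers was -0.50 over both sets, 0.12 in set 2 and -1.03 in set 1. The number that fell was 1 without Ctrl replicate 1, Ctrl replicate 3 or SMV replicate 3, and 0 without SMV replicate 1. Pdgfra, a receptor of fibroblasts and mesenchyme, stood at 6.87, 13.5, 9.48 and 13.7 CPM in SMV, against 43.5, 15.1, 31.5 and 16.2 CPM in Ctrl (log2 fold change -1.29 ± 0.35, edgeR adjusted p = 0.0295, and 0.0698 without Ctrl replicate 1, 0.0732 without Ctrl replicate 3, 0.0742 without SMV replicate 1 and 0.0779 without SMV replicate 3). The interaction was called for 3 of the 10 markers, against 0.0558% of all genes. These were Col3a1 (1.52 ± 0.15, edgeR adjusted p = 0.0277), Tcf21 (2.44 ± 0.29, edgeR adjusted p = 0.0351) and Col1a2 (1.38 ± 0.16, edgeR adjusted p = 0.0351). As for the members, this count hung on single libraries, with 5 markers called without Ctrl replicate 1, 8 without Ctrl replicate 3 and 0 without any other library. The part of these cells in the chemokine values was not tested.

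Macrophage markers, 14 tested of 15, summed to 331 to 428 CPM in SMV and 382 to 477 CPM in Ctrl, with none at 0 in all libraries. Lyz2 made up most of these sums, at a mean of 289 CPM in SMV and 318 CPM in Ctrl. Of the 14 tested 5 fell and 0 rose, against 9.61% and 7.79% of all genes tested. The median log2 fold change was -0.50, and 13 of the 14 were negative. Among those that fell were Cd68 (-0.65, edgeR adjusted p = 0.0033) and the complement gene C1qb (-1.30, edgeR adjusted p = 0.0048). Not called were 9, among them Csf1r (-0.07), Lyz2 (-0.13), Itgam (-0.02) and Ptprc (0.15). The number that fell was 3 without Ctrl replicate 2, Ctrl replicate 3, SMV replicate 1, SMV replicate 3 or SMV replicate 4, and no macrophage marker had a called interaction. Of 10 endothelial markers 1 rose, Tek (log2 fold change 1.40), and 1 fell, Emcn (-2.23), against 7.79% and 9.61% of all genes tested. The endothelial sums were 259 to 325 CPM in SMV and 293 to 397 CPM in Ctrl. Without SMV replicate 4 there were 2 that rose and without Ctrl replicate 4 there were 2 that fell. Of the smooth muscle and pericyte markers, 7 tested of 8, 1 rose and 3 fell, against the same shares of all genes. Their sums were 594 to 740 CPM in SMV and 599 to 739 CPM in Ctrl. With 1 library left out, 2 to 4 of these markers fell. Of 7 epicardial markers 1 rose and 2 fell, against the same shares, with sums of 314 to 333 CPM in SMV and 226 to 354 CPM in Ctrl. Only 1 epicardial marker fell without Ctrl replicate 1, Ctrl replicate 3, SMV replicate 1 or SMV replicate 3. The part of these cell types in the chemokine values was not tested either.

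**Figure D3:**
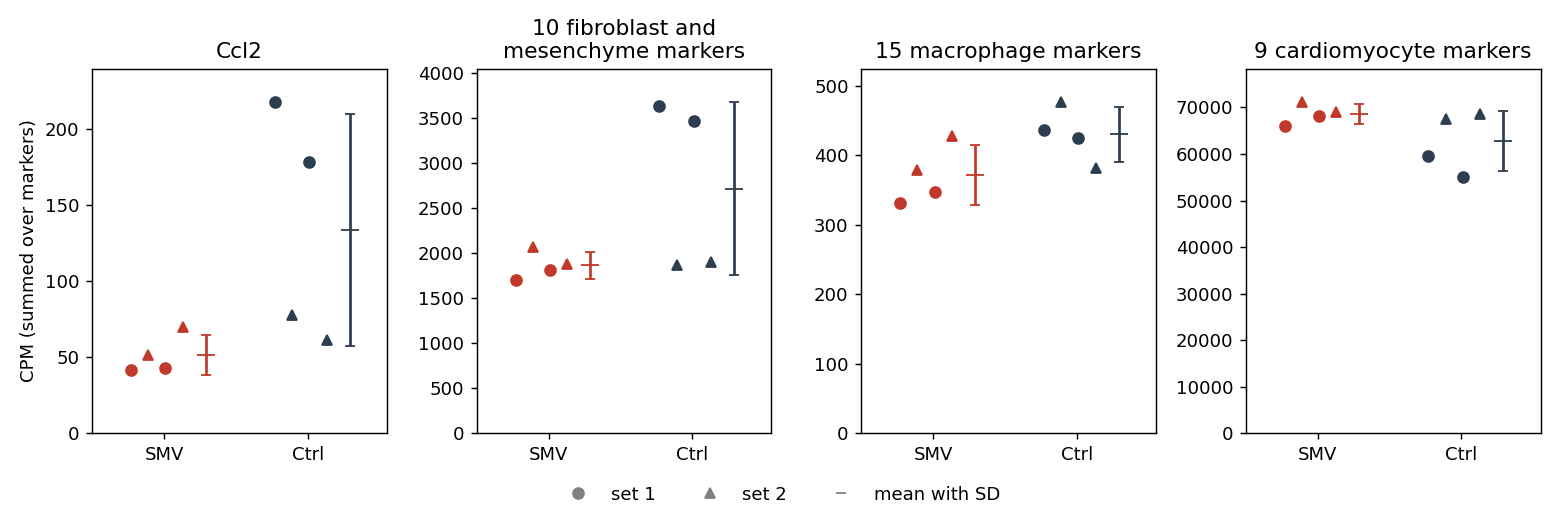
CPM of Ccl2 and summed CPM of 10 fibroblast and mesenchyme, 15 macrophage and 9 cardiomyocyte markers (vertical axes) in the 4 SMV libraries (left, red) and 4 Ctrl libraries (right, blue), with circles for set 1, triangles for set 2 and bars for the mean with SD. In the first pair of panels the set 1 Ctrl libraries stand highest, at 218 and 178 CPM for Ccl2 and at 3632 and 3471 CPM for the fibroblast and mesenchyme markers.

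The genes whose pattern was most like each member were ranked by the root mean square difference of centred log2 CPM over the 8 libraries, among 12269 protein-coding genes. The nearest gene to Ccl2 was Ccl7, at 0.219, followed by Crabp1 and, at 0.227, Pdgfra. For Ccl7, Anxa1 (0.209) and Ccl2 were among the nearest 3. Cxcl12 was nearest to Gpr176 (0.134), Ccl4 to Coro1a (0.117), Ccl9 to Clec1b (0.163) and Cx3cl1 to Slc2a4 (0.0723). Cxcl16, which varied little, was nearest to the ribosomal protein gene Rps10 (0.0242), whereas Cxcl1 and Cxcl5 had no close neighbour, the nearest being Cyp1b1 at 0.394 and Adam12 at 0.639. These distances describe the same 8 libraries and share their depth and set.

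The rest of the chemokine family was read from a list of 31 other symbols, of which 24 had a count and 11 were tested. By edgeR's quasi-likelihood test 1 rose and 0 fell, against 7.79% and 9.61% of all genes tested, with a median log2 fold change of -0.37. An unadjusted p under 0.05 was found for 2 of the 11, against 4764 of all 16126 genes. Called lower were 1 with limma-voom and 0 with DESeq2. The gene that rose was Cxcl3, a Cxcr2 ligand of the same chromosome 5 cluster as Cxcl1 and Cxcl5, at 5.70, 4.95, 7.13 and 7.70 CPM in SMV, against 4.10, 4.02, 3.15 and 2.14 CPM in Ctrl. Every SMV library of Cxcl3 was above every Ctrl library, and the log2 fold change was 0.92 ± 0.24 (edgeR adjusted p = 0.0233). The call was lost without Ctrl replicate 3 (edgeR adjusted p = 0.0529), SMV replicate 3 (0.0665) or SMV replicate 4 (0.0638). Cxcl2, the neighbour of Cxcl1 and likewise a Cxcr2 ligand, averaged 3.03 ± 0.986 CPM in SMV and 1.85 ± 0.751 CPM in Ctrl (SD, n = 4 each; log2 fold change 0.71, edgeR adjusted p = 0.215).

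Between Cxcl5 and Cxcl3 on chromosome 5 lie Ppbp and Pf4, the platelet chemokines. Ppbp stood at 0.756, 2.04, 0.161 and 3.82 CPM in SMV, against 7.09, 7.40, 4.35 and 6.38 CPM in Ctrl, without overlap, and missed the threshold (log2 fold change -1.89 ± 0.62, edgeR adjusted p = 0.0608). Without SMV replicate 4 it passed (-2.65, edgeR adjusted p = 0.0149), as it did with limma-voom (adjusted p = 0.0208). Pf4 averaged 12.1 ± 3.10 CPM in SMV and 15.6 ± 2.41 CPM in Ctrl (SD, n = 4 each; log2 fold change -0.37, edgeR adjusted p = 0.244). Ccl3, the neighbour of Ccl4, averaged 5.83 ± 1.87 CPM in SMV and 6.23 ± 1.12 CPM in Ctrl (SD, n = 4 each; -0.10, edgeR adjusted p = 0.838), and Ccl6, the neighbour of Ccl9, had a log2 fold change of -0.45 (edgeR adjusted p = 0.349). The Ccr6 ligand Ccl20 stood at 0.819, 4.29, 1.84 and 4.84 CPM in SMV, against 12.05, 3.55, 6.44 and 4.24 CPM in Ctrl (-1.16, edgeR adjusted p = 0.176). Like Cxcl5, Ccl20 was highest in the set 1 Ctrl libraries, and its interaction was 3.03 (edgeR adjusted p = 0.0709). Cxcl10, Ccl25 and Ccl27a had log2 fold changes of -1.02, -0.11 and -0.07 and overlap the genes Art3, Elavl1 and Il11ra1, and Ccl5 had one of -0.96; none of the 4 was called.

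Among 24 chemokine receptor symbols, 9 were tested. By edgeR's quasi-likelihood test 3 rose and 1 fell, against 7.79% and 9.61% of all genes tested. Those that rose do not couple to G proteins in the classical way. Ackr3, which takes up Cxcl12 from outside the cell, was at 14.4, 6.68, 11.9 and 9.25 CPM in SMV, against 5.10, 2.25, 3.58 and 2.85 CPM in Ctrl (log2 fold change 1.61 ± 0.30, edgeR adjusted p = 0.0039). Ackr3 did not overlap between the groups, so it was higher in all 4 SMV libraries while its ligand Cxcl12 was lower in all 4. Ccrl2, a receptor-like protein that binds chemerin, averaged 13.1 ± 0.866 CPM in SMV and 6.97 ± 0.587 CPM in Ctrl (SD, n = 4 each; 0.91 ± 0.13, edgeR adjusted p = 0.0010). Ackr1, which binds many inflammatory CC and CXC chemokines, averaged 4.98 ± 1.15 CPM in SMV and 2.26 ± 0.787 CPM in Ctrl (SD, n = 4 each; 1.14 ± 0.28, edgeR adjusted p = 0.0182, and 0.0511 without Ctrl replicate 4 or 0.0526 without SMV replicate 1).

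The signalling receptors of the members had few counts. Ccr1, the receptor of Ccl9, had 8, 22, 16 and 17 counts in SMV against 68, 25, 28 and 15 counts in Ctrl, which overlapped (log2 fold change -1.01, edgeR adjusted p = 0.178). Cxcr6, the receptor of Cxcl16, had 11, 6, 4 and 18 counts in SMV against 20, 10, 12 and 20 counts in Ctrl, which overlapped too (-0.58, edgeR adjusted p = 0.501), and it overlaps Fyco1. Cx3cr1, the receptor of Cx3cl1, fell, with 2, 6, 2 and 8 counts in SMV against 19, 18, 21 and 17 counts in Ctrl (log2 fold change -1.95 ± 0.45, edgeR adjusted p = 0.0125). Cx3cr1 overlaps several genes, among them Xirp1 with 143158 counts over the 8 libraries against 93 for Cx3cr1. Cxcr4, the signalling receptor of Cxcl12, had 0, 1, 4 and 1 counts in SMV against 4, 4, 7 and 5 counts in Ctrl, and was not tested. Ccr2, the receptor of Ccl2 and Ccl7, had 0 counts in all 4 SMV libraries against 0, 9, 3 and 10 counts in Ctrl, where a count of 0 allows up to 3 counts a library, or 0.0854 to 0.0988 CPM. Cxcr2 had 15 counts over the 8 libraries and Ccr4 2. Ccr1, Cxcr6 and the untested receptors were chosen as partners of the members after their counts were seen.

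**Figure D4:**
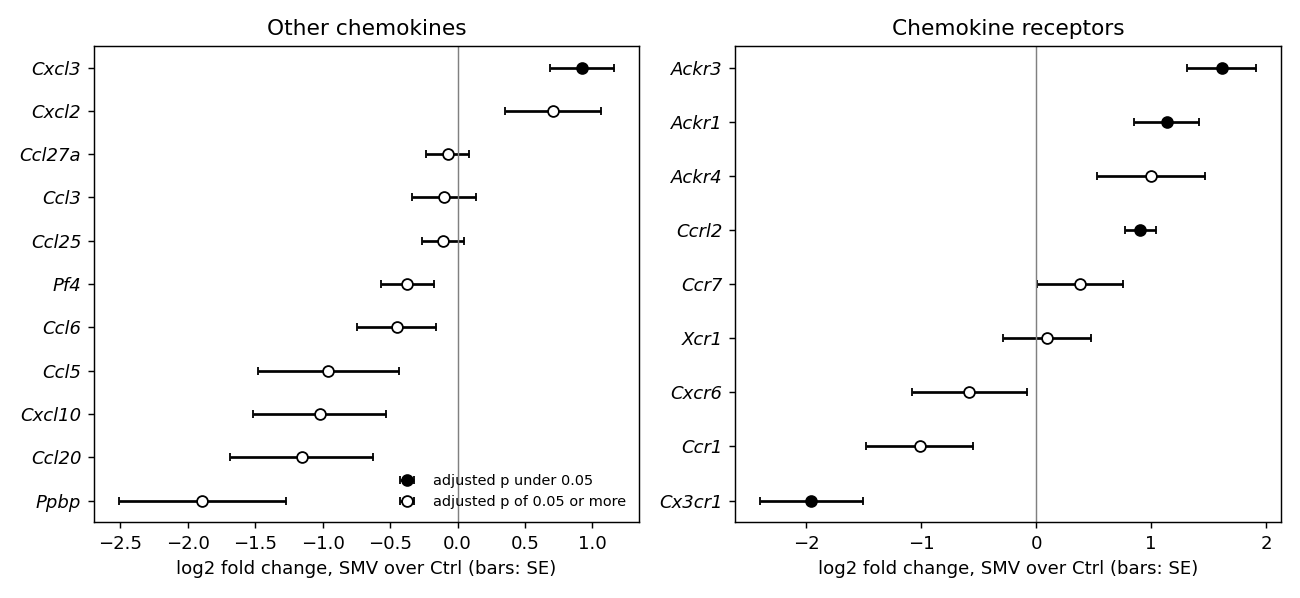
Log2 fold change of SMV over Ctrl (horizontal axes, bars are SE) for the 11 tested chemokines outside the 10 (left panel) and the 9 tested receptors (right panel), with filled points at an adjusted p under 0.05. Cxcl3 is the filled chemokine at 0.92, and Ackr3, Ackr1 and Ccrl2 are the filled receptors to the right of 0, with Cx3cr1 filled at -1.95.

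Proteases that trim or shed chemokines were read from a list of 6, all tested. Of these 1 fell and 0 rose, against 9.61% and 7.79% of all genes tested. Mmp2, a gelatinase that cleaves Ccl7 and Cxcl12, averaged 73.4 ± 18.9 CPM in SMV and 188 ± 22.1 CPM in Ctrl (SD, n = 4 each; log2 fold change -1.35 ± 0.18, edgeR adjusted p = 0.0005). Mmp9 missed the threshold (log2 fold change -0.97 ± 0.32, edgeR adjusted p = 0.0602). Without Ctrl replicate 4 or SMV replicate 4 there were 2 that fell, Mmp2 and Mmp9 (edgeR adjusted p for Mmp9 of 0.0331 and 0.0157). Without SMV replicate 1 there was 1 that rose. Adam10, a sheddase of Cx3cl1 and Cxcl16, averaged 267 ± 50.5 CPM in SMV and 238 ± 45.1 CPM in Ctrl (SD, n = 4 each; 0.17, edgeR adjusted p = 0.584), and Dpp4, which removes the end of Cxcl12, had a log2 fold change of 0.80 (edgeR adjusted p = 0.0824).

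Of 18 NF-kB subunits and regulators edgeR called 0 (DESeq2 called 1 lower and limma-voom 0), with a median log2 fold change of 0.02. An unadjusted edgeR p under 0.05 was found for 4 of them, against 4764 of all 16126 genes. Without SMV replicate 3 there were 3 called lower. Of 18 NF-kB target genes outside the chemokines 16 were tested, and 2 rose and 3 fell, with a median of -0.08. Over all genes tested, 7.79% rose and 9.61% fell. Csf1, the macrophage growth factor (-1.97, edgeR adjusted p = 0.0001), and Ptgs2, the inducible prostaglandin synthase (-1.47, edgeR adjusted p = 0.0006), fell. Icam1, a leukocyte adhesion molecule, fell too (-0.69, edgeR adjusted p = 0.0084). Traf1, a signalling adaptor, rose (1.71, edgeR adjusted p = 0.0026). The cytokine gene Il1b, outside the rule for named genes, rose as well (1.94, edgeR adjusted p = 0.0105). Without Ctrl replicate 1 there were 4 that rose. Of 15 interferon-stimulated genes, all tested, 3 rose and 1 fell, against the same shares of all genes, with a median of 0.58. Among those called were Stat2 (0.84, edgeR adjusted p = 0.0075) and Ifit2 (-1.74, edgeR adjusted p = 0.0076).

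Promoter sequence was at hand for Cxcl1, Ccl9, Ccl17, Cxcl12 and Cx3cl1, as the 250 bases before the gene start in RefSeq on GRCm38.p6. Cxcl1 and Cxcl12 are shown because the sets gave Cxcl1 opposite signs while Cxcl12 was lower in both. Capitals mark matches to the kB consensus in Cxcl1 and to the GC box, GGGCGG on either strand, in Cxcl12, and positions count back from the gene start.
Cxcl1, chr5:90890995-90891244, plus strand: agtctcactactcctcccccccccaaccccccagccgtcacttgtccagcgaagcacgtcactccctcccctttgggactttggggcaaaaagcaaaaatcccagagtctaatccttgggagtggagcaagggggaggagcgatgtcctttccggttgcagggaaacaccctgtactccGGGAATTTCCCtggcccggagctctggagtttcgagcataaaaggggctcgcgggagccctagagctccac
Cxcl12, chr6:117168285-117168534, plus strand: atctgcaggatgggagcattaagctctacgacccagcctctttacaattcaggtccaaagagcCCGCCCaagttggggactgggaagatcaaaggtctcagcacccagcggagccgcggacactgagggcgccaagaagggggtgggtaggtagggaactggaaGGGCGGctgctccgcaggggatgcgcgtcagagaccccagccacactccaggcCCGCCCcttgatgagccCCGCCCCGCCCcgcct
The kB consensus matched Cxcl1 at -71 to -62, with an overlapping match on the other strand at -70 to -61, and Ccl9 at -35 to -26. The GC box matched Cxcl12 at 5 places, of which the last 2 overlap by a base, and Cx3cl1 at 1. The kB consensus was present in 7.25% and the GC box in 32.7% of all 32851 such windows, on either strand, and TATAAA, found in Cx3cl1 and Ccl9, in 12.4%. A match describes the letters and is not evidence of binding.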

How the data were processed

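RNA-seq of 4 SMV and 4 Ctrl libraries was analysed from the deposited read counts per gene, which the authors made, per the submitters' processing notes, with Trimmomatic 0.36, STAR 2.5.2b and featureCounts of Subread 1.5.2 on GRCm38 (mm10). The sources used here give neither the annotation release nor the strand setting. Ensembl IDs were matched to GENCODE M21 symbols (99.47% matched). All 10 members had gene positions identical to M21.

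Counts were tested with edgeR 4.0.16 in R 4.3.3 (quasi-likelihood F test, TMM scaling, filterByExpr, Benjamini-Hochberg adjustment over 16126 genes, threshold 0.05). SE is the log2 fold change divided by the root of F. CPM use TMM-scaled totals of tested genes, and TPM the lengths in the files. The set effect used an additive term and the set by treatment difference an interaction term. The fits were tested on simulated data. Alternatives were limma 3.58.1 voom, DESeq2 1.42.0, other scalings and filters, a replicate block, each set alone and each library left out; the closing section gives their effect. Same-numbered SMV and Ctrl replicates did not deviate together, so they were not treated as pairs.

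The members and lists (other chemokines, receptors, proteases, NF-kB subunits and targets, interferon-stimulated genes and cell type markers) were chosen with earlier results of these data known. Named were all members, other chemokines and receptors past the threshold or at a mean of 1 CPM or more, up to 4 genes with the smallest p in each other list, and genes among the 3 nearest to each member; a few genes under this rule are not reported here. Counting intervals were not used, and library number limits precision.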

Additional observations from a re-analysis of the deposited data

Results flagged for a closer look

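The simvastatin effect differed between the sets, by edgeR's test of the interaction, for Ccl2 (2.04 on the log2 scale, set 2 minus set 1) and Ccl7 (2.02). The fibroblast and mesenchyme markers Col3a1 (1.52) and Tcf21 (2.44) were picked out by the same test, and Col1a2 (1.38), outside the rule for named genes, was called too. All 5 effects were lower in set 1, and the calls hung on single libraries: with 1 library left out, 0 to 5 members and 0 to 8 of the 10 markers were called.

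Single libraries stood far from the other 3 of their group for 5 genes outside the 10 members. Ikbkg was at 69.9 CPM in SMV replicate 1, with the other SMV libraries at 90.3 to 91.2 CPM. Map3k14 was at 2.68 CPM in SMV replicate 3, with the others at 1.38 to 1.51 CPM. Adgre1 was at 11.7 CPM in SMV replicate 1, with the others at 16.8 to 17.3 CPM. Csf1 was at 292 CPM in Ctrl replicate 3, with the others at 162 to 179 CPM, and Myh11 was at 1.80 CPM in Ctrl replicate 3, with the others at 4.92 to 5.38 CPM. These are 5 of 128 groups examined (3.91%), where chance alone picks out about 1 in 20. No member had such a library.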

How the results depend on the processing

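Of the 10 members, 8 were called lower in all, 6 with the replicate block and 6 with limma-voom. With 1 library left out 7 to 8 were called lower, and in set 2 alone 5 lower and 1 higher. Over all genes limma-voom called 1535 lower and 1264 higher of 16126, and set 2 alone 1872 lower and 1103 higher of 16233. With 1 library left out, 1185 to 1417 of all genes were called lower. The other chemokines called higher (1) became 0 with the replicate block, in set 1 alone or in set 2 alone, and 0 to 1 with a library left out; those called lower (0) became 1 with limma-voom, the replicate block, set as a term or set 2 alone, 2 with no abundance filter or in set 1 alone, and 0 to 1 with a library left out. Receptors called higher (3) were 1 in set 1 alone and 2 to 3 with a library left out; those called lower (1) were 2 with no filter, and 0 with a filter of 1 CPM or in set 2 alone. Members called between the sets were 4 with no filter, against 0, where 1045 of all 32927 genes were called, against 0 of 16126. Interactions called (2) were 5 with DESeq2, 5 with no filter and 0 to 5 with a library left out; over all genes they were 530 with DESeq2, 981 with no filter and 0 to 1213 with a library left out, against 9. The sign turned for Cxcl1 (-0.04), which was not called, with limma-voom (0.22), the replicate block (0.27), set as a term (0.22), in set 2 alone (1.31) and without Ctrl replicate 1, SMV replicate 1 or SMV replicate 2 (-0.30 to 0.72 over all libraries left out), for the Cx3cl1 interaction without SMV replicate 1 (-0.012 to 0.28 over all libraries left out), for Ccl3 without Ctrl replicate 1 or SMV replicate 3 (-0.33 to 0.021) and in set 2 alone (0.21), for Ccl20 in set 2 alone (0.23), and for Ccl27a without Ctrl replicate 3 (-0.16 to 0.016) and in set 2 alone (0.040). Over all genes the replicate block called 1187 lower and 944 higher, against 1549 and 1256, and set 1 alone 979 and 648; the numbers were not shown to pair libraries. The cause of these changes was not tested, except that a set alone has 2 libraries a group. Genes of a few counts, such as Cx3cr1, are limited by depth.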
